A study of Mus musculus with 6 samples.

Results

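The hypoxia-inducible factor (HIF) subunits and the oxygen-sensing enzymes that act on them were examined in fetal livers of mouse embryos lacking Tmod3, an actin filament capping protein. The 9 genes were the subunit genes Hif1a, Epas1, Hif3a and Arnt, the hydroxylase genes Egln1, Egln2, Egln3 and Hif1an, and Vhl. They were chosen by name, each was covered by exactly 1 probe set, and they were 9 of the 19938 named genes on the array. The samples were 3 livers of Tmod3-/- embryos, labelled small with anemia, and 3 of Tmod3+/+ embryos labelled normal, each hybridised to an Affymetrix MoGene 1.0 ST array. All were C57BL/6J embryos at E14.5 from separate embryos. Which part of Tmod3 is disrupted, and the sex of the embryos, are not given in the sources used here. Levels are deposited values read as log2, and differences are knockout minus wild type.

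HIF is a pair of basic helix-loop-helix PAS proteins, an oxygen-labile alpha subunit and the stable beta subunit ARNT. When oxygen is present, the prolyl hydroxylases encoded by the Egln genes modify the alpha subunit, and VHL, the recognition subunit of a cullin ubiquitin ligase, then binds it for destruction. The asparaginyl hydroxylase encoded by Hif1an blocks binding of the coactivators CREBBP and EP300. This control acts on the protein, which these arrays did not measure. Egln1 and Egln3 are themselves known HIF target genes, and the fetal liver is a known source of the HIF target erythropoietin.

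Tmod3 itself read 1.32, 2.36 and 1.30 in knockout livers, against 4.49, 4.78 and 4.90 in wild type livers, so each array matched its label. Its log2 fold change was -3.06 (limma adjusted p = 0.0225), a call that ended when any of 4 arrays was left out, namely knockout replicates 1 and 3 and wild type replicates 2 and 3 (adjusted p of 0.0911, 0.109, 0.255 and 0.0856). As a check of the labelled tissue, the mean level of the erythroid markers was 4.52 to 4.87 in knockout and 4.90 to 5.29 in wild type livers, and that of the hepatocyte markers 5.96 to 6.91 in knockout and 6.85 to 7.29 in wild type livers. As a yardstick for genes that liver is not known for, the 5 measured of 6 kidney markers gave 30 values between 0.78 and 1.87. Array medians lay between 1.36 and 1.43. The arrays gave no detection call. Over all genes the median log2 fold change was 0.0057, but it was -0.25 for those 2545 whose mean over the 6 arrays was 3 or more. Of the 9 genes, Hif1a alone lay in that range. Wild type replicate 1 stood apart in its group, with the lowest of the 6 limma array weights (0.517).

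Within the pathway, the prolyl hydroxylase transcripts Egln1 and Egln3 read higher in knockout liver, while the HIF subunits, Egln2, Hif1an and Vhl showed overlapping groups. None of the 9 genes passed an adjusted p of 0.05 over all genes (limma, adjusted p from 0.379 to 0.986), a threshold that 0.015% of all genes passed. At an unadjusted p under 0.05 there were 2 of 9 (22.2%), Egln1 and Egln3, both higher, against 9.03% of all genes in either direction and 2.59% in the higher direction. The same 2 genes were the members without overlap between the groups, which held for 13.2% of all genes in either direction, for 6.14% in the higher and for 7.1% in the lower direction. The pair without overlap depended on the scaling: it was Egln1 alone after renewed quantile normalization and Hif3a alone after median centring. The median log2 fold change of the 9 genes was 0.012. With 2 genes, these shares are counts and not evidence that the set as a whole differs from other genes.

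**Figure D1:**
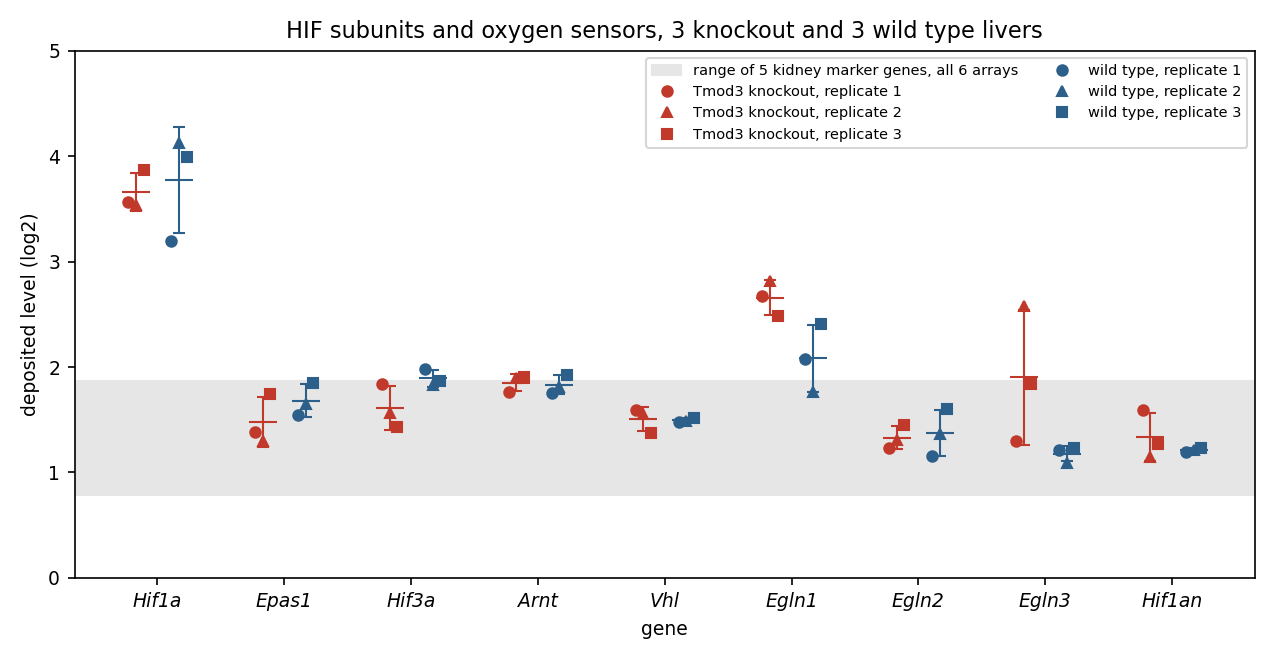
Deposited level (log2) of each of the 9 genes in the 3 knockout livers (red, left) and the 3 wild type livers (blue, right), 1 symbol per replicate, with the group mean and SD as bars. The grey band spans the 30 values of the 5 kidney markers, from 0.78 to 1.87. Hif1a and the knockout values of Egln1 lie above the band, and most other values lie inside it.

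Egln1 encodes the main HIF prolyl hydroxylase, also known as PHD2. It read 2.68, 2.82 and 2.48 in knockout livers, against 2.07, 1.76 and 2.41 in wild type livers. Every knockout array lay above every wild type array, but the gap between knockout replicate 3 and wild type replicate 3 was small. The means were 2.66 ± 0.17 in knockout and 2.08 ± 0.32 in wild type livers (SD, n = 3 each). The log2 fold change was 0.58 ± 0.17 (SE), a 1.49-fold higher level with a 95% interval of 1.13 to 1.96. The unadjusted limma p was 0.0100 and the adjusted p 0.379, so the difference did not pass. The unadjusted p stayed under 0.05 in 15 of 15 alternative analyses, and the log2 fold change lay between 0.42 and 0.74 in them. These are not 15 separate checks. The replicate block, probe set averaging, all probe sets, the filter on dim genes and trend with robust fitting leave this log2 fold change unchanged. After each array was centred on its own median, the groups touched, since knockout replicate 3 (1.049) then lay just below wild type replicate 3 (1.051).

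Egln3 encodes the hydroxylase also known as PHD3, whose transcript is known to respond strongly to low oxygen. It read 1.30, 2.57 and 1.83 in knockout livers, against 1.22, 1.09 and 1.23 in wild type livers. The wild type values were alike, and knockout replicate 1 lay just above them. All wild type values and knockout replicates 1 and 3 lay inside the range of the kidney markers, so that 1 of 3 knockout arrays exceeded it. The knockout mean was 1.90 ± 0.64 and the wild type mean 1.18 ± 0.08 (SD, n = 3 each). The log2 fold change was 0.72 ± 0.28 (SE; limma unadjusted p = 0.0307, adjusted p = 0.501). Its size rests on wild type values below their array medians and may not reflect the true fold. Knockout replicate 2 carried much of this difference. Without it the log2 fold change was 0.39 (unadjusted p = 0.0612), and without knockout replicate 1 it was 1.03 (unadjusted p = 0.00211). Leaving out any of the other 4 arrays gave 0.68 to 0.76, with an unadjusted p from 0.0532 to 0.0803.

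The bases before the annotated start are shown for these 2 genes because both are HIF targets, and for Hif1a as a gene whose groups overlapped. They come from RefSeq (GRCm38.p6), and the table used here held 9 promoters of 8 of the 9 genes. The window of Epas1 was not analysed here. Each run holds the 250 bases before the start, 5′ to 3′ along the gene's strand. Capitals mark ACGTG or GCGTG on either strand, the core letters of the hypoxia response element. Egln1 and Egln3 lie on the minus strand and Hif1a on the plus strand, and the windows are chr8:124949255-124949504, chr12:54203875-54204124 and chr12:73907617-73907866.
Egln1: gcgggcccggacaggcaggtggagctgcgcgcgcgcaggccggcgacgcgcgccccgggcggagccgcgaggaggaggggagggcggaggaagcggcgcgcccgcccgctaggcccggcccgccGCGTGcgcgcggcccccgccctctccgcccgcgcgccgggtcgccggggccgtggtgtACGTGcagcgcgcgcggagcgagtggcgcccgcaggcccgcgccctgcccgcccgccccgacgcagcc
Egln3: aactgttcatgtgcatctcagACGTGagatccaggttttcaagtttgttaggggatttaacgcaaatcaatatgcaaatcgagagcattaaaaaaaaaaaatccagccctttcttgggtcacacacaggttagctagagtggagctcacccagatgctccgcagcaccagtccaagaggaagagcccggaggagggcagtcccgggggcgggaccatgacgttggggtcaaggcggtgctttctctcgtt
Hif1a: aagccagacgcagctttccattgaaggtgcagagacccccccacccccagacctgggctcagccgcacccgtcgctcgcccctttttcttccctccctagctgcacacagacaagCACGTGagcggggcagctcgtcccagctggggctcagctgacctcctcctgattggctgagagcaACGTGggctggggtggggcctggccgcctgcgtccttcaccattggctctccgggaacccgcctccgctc
In Egln1 the ACGTG letters begin at position -68, where -1 is the last base before the start, and a GCGTG lies further upstream. In Egln3 a single ACGTG begins at position -229. Hif1a held the palindrome CACGTG, which matches on both strands and so counts as 2 overlapping matches, and a separate ACGTG. Among all 32851 RefSeq promoters in the same window, 16.6% held ACGTG, 28.2% GCGTG and 38.6% at least one of them. Among the 9 promoters of these genes, 4 held ACGTG, 5 GCGTG and 7 either. Egln2 gave both a promoter with ACGTG and a promoter without it. G or C made up 48% to 86% of the bases in these windows, which was not matched in all promoters. Whether these shares differ from those of all promoters was not tested. Vhl and Hif1an held neither in this window, which says only that these letters are not there. The letters did not separate the genes that read higher from the rest, since Hif1a and Egln2 also carry ACGTG.

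Egln2, the gene of the third prolyl hydroxylase (PHD1), read 1.23, 1.31 and 1.45 in knockout livers, against 1.16, 1.36 and 1.60 in wild type livers. The groups overlapped throughout and every value lay inside the range of the kidney markers. Its log2 fold change was -0.042, with a 95% interval of -0.35 to 0.27 (limma adjusted p = 0.957). Hif1an, the asparaginyl hydroxylase gene, read 1.59, 1.15 and 1.27 in knockout livers, against 1.19, 1.21 and 1.23 in wild type livers. Knockout replicate 1 was the highest array and knockout replicate 2 the lowest, with the wild type arrays between them. The log2 fold change was 0.13, with a 95% interval of -0.17 to 0.43 (limma adjusted p = 0.841). A difference in either gene was not detectable at these low levels.

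Vhl read 1.59, 1.56 and 1.38 in knockout livers, against 1.48, 1.49 and 1.52 in wild type livers. The wild type values lay within the knockout range. The log2 fold change was 0.012 with a 95% interval of -0.22 to 0.25, which in folds spans 0.857 to 1.19 (limma adjusted p = 0.986). Every value of Vhl also lay inside the range of the kidney markers.

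Hif1a, the gene of the broadly expressed alpha subunit, read 3.57, 3.54 and 3.86 in knockout livers, against 3.20, 4.12 and 3.99 in wild type livers. Hif1a was above the kidney markers in 6 of 6 arrays. The knockout arrays fell between a low wild type replicate 1 and the higher wild type replicates 2 and 3. The means were 3.66 ± 0.18 in knockout and 3.77 ± 0.50 in wild type livers (SD, n = 3 each). The log2 fold change was -0.11 with a 95% interval of -0.65 to 0.43 (limma adjusted p = 0.932). Without wild type replicate 1 it was -0.40 (unadjusted p = 0.0212, adjusted p = 0.241). With renewed quantile normalization it was 0.11, and with cyclic loess, chosen after seeing the data, 0.12. No direction can therefore be given for Hif1a.

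Epas1, the gene of the alpha subunit HIF2 alpha that is abundant in endothelium, read 1.39, 1.30 and 1.74 in knockout livers, against 1.54, 1.65 and 1.85 in wild type livers. Knockout replicate 3 lay above wild type replicates 1 and 2, so the groups overlapped. Its log2 fold change was -0.20, with a 95% interval of -0.54 to 0.13 (limma adjusted p = 0.758). It was -0.34 without knockout replicate 3 (unadjusted p = 0.0385) and -0.12 without knockout replicate 2. Hif3a, whose product has isoforms that oppose the other alpha subunits, read 1.84, 1.56 and 1.43 in knockout livers, against 1.98, 1.83 and 1.86 in wild type livers. Knockout replicates 2 and 3 lay below all wild type arrays, and knockout replicate 1 lay just above wild type replicate 2. Its log2 fold change was -0.28, with a 95% interval of -0.57 to 0.012 (limma unadjusted p = 0.0578, adjusted p = 0.574). It was -0.40 without knockout replicate 1 (unadjusted p = 0.0119), and after median centring the groups did not overlap (-0.32, unadjusted p = 0.0332). Epas1 lay inside the range of the kidney markers in 6 of 6 arrays, and Hif3a exceeded it in 0 of 3 knockout and 1 of 3 wild type arrays.

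Arnt, the shared beta subunit gene, read 1.76, 1.89 and 1.90 in knockout livers, against 1.75, 1.81 and 1.93 in wild type livers. The groups interleaved. Its log2 fold change was 0.023, with a 95% interval of -0.21 to 0.26 (limma adjusted p = 0.970). Arnt exceeded the kidney markers in 2 of 3 knockout and 1 of 3 wild type arrays, by small margins.

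**Figure D2:**
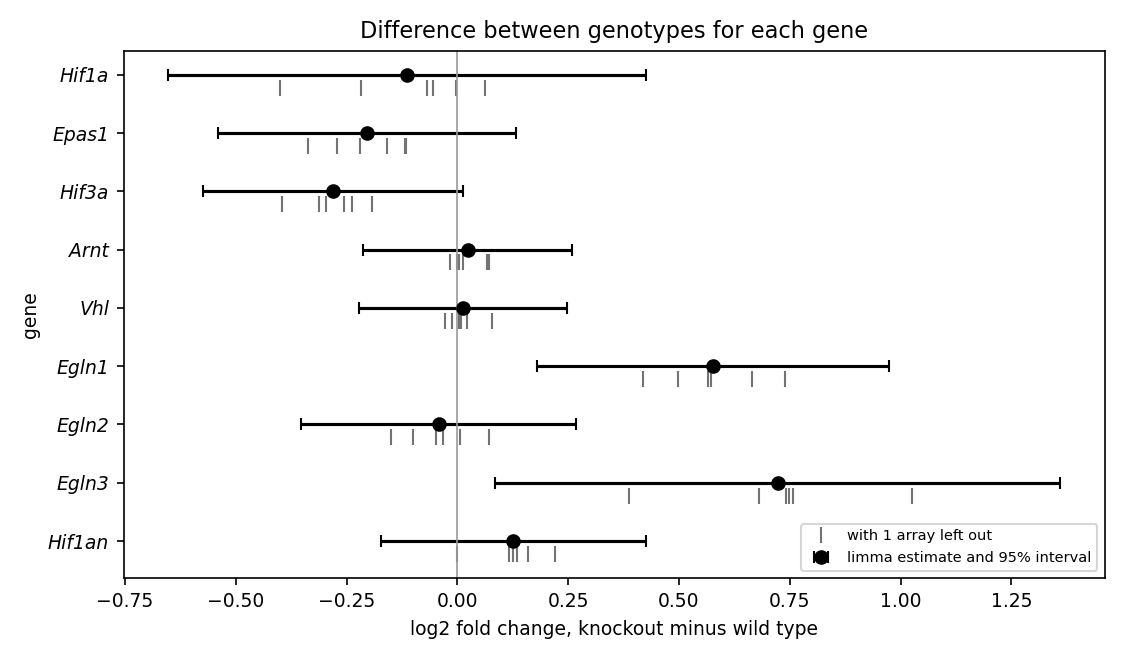
Log2 fold change, knockout minus wild type, of each gene (black points, limma) with its 95% interval, and the values with 1 array left out (grey ticks). The unadjusted intervals of Egln1 and Egln3 lie above 0, and the ticks of Egln3 spread from 0.39 to 1.03.

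Egln1 and Egln3 were both highest in knockout replicate 2. That array was also the highest of the 6 for 18 of 34 measured HIF target genes (52.9%), while it was highest for 14.2% of all genes. The HIF target list left out the 9 genes and held 38 symbols. Its mean level was 2.97, 3.36 and 3.05 in knockout livers, against 2.53, 2.65 and 2.81 in wild type livers. Each knockout array thus lay above each wild type array. Knockout replicate 1, which had the lowest Egln3 of its group, had the lowest target mean of its group as well. Hif1a was low in the same array that had the lowest target mean, wild type replicate 1, and high in wild type replicates 2 and 3. In knockout replicate 2, which had the highest target mean, Hif1a was instead the lowest of its group (3.54). Egln1 was lowest of its groups in knockout replicate 3 and wild type replicate 2 (2.48 and 1.76), not in the arrays with the lowest target means.

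**Figure D3:**
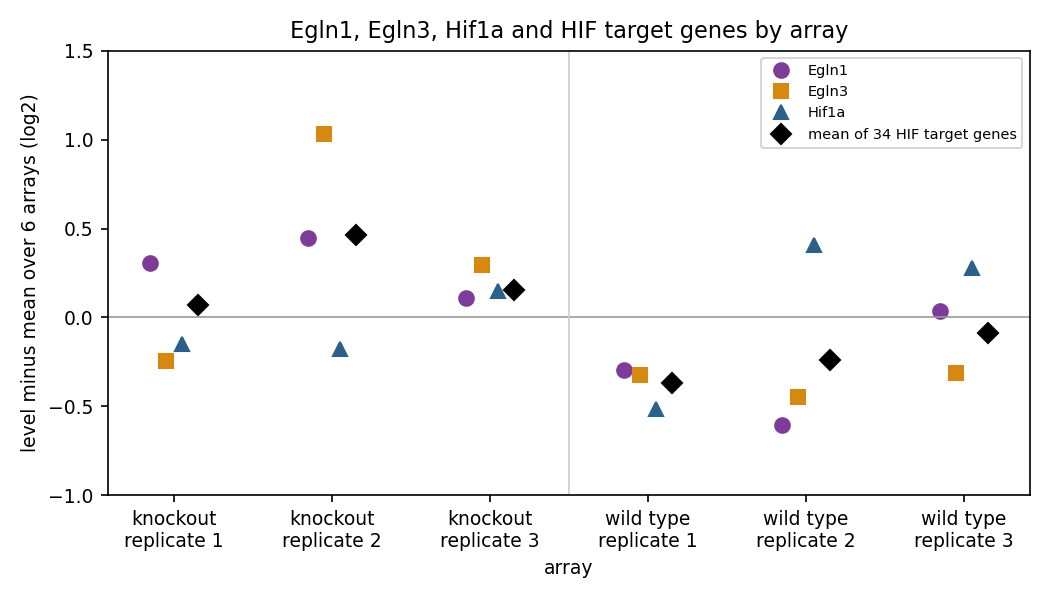
Level minus the mean over the 6 arrays (log2) for Egln1, Egln3, Hif1a and the mean of 34 HIF target genes, by array, knockout left and wild type right. Knockout replicate 2 is the highest array for Egln1, Egln3 and the target mean, and wild type replicate 1 is the lowest for Hif1a.

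Of the 34 measured HIF target genes, 30 had a positive log2 fold change and the median was 0.31. At an unadjusted limma p under 0.05, 13 read higher and 1 lower, against 2.59% and 6.44% of all genes, and none passed an adjusted p of 0.05. Under the alternatives the higher count was 10 to 14, and it was 11 without knockout replicate 2. Vegfa, the endothelial growth factor gene, read 2.82, 2.83 and 3.08 in knockout livers, against 2.01, 2.09 and 2.11 in wild type livers (log2 fold change 0.84, adjusted p = 0.103). Plod2, a collagen lysyl hydroxylase gene, had a log2 fold change of 1.19 (adjusted p = 0.118) and, of the alternatives run, passed after renewed quantile normalization (adjusted p = 0.0172) and cyclic loess (0.0189). Pgk1, a glycolytic kinase gene, had 1.32 (adjusted p = 0.144). The single target lower at an unadjusted p under 0.05 was Tfrc, the transferrin receptor gene of erythroid cells, with -0.67; it was named after its value was seen. This list was drawn up with earlier results on low-oxygen genes in these arrays known, so its direction is not independent evidence. It also shares Tfrc with the erythroid markers, and Kdm3a, P4ha1 and P4ha2 with the other oxygen-using dioxygenases.

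Targets often assigned to HIF2 formed a list of their own. Among measured genes, that list shares Epo with the other targets, and Cdh5, Flt1, Kdr and Tek with the endothelial markers. Of 12 measured, 0 read higher and 1 lower at an unadjusted p under 0.05 by limma, against 2.59% and 6.44% of all genes, 0 passed after adjustment, and the median log2 fold change was 0.089; whether this list differs from the other targets was not tested. The lower gene was Slc40a1, the iron exporter, with -0.36 (adjusted p = 0.424). The vascular receptor genes Flt1 and Kdr had 0.21 and 0.18 (adjusted p of 0.695 and 0.712). Epo, named after its value was seen, read 1.29, 0.97 and 1.18 in knockout livers, against 1.24, 0.98 and 0.96 in wild type livers. All values of Epo lay below the median of their array, so its level could not be compared at this sensitivity.

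Partners of VHL in the ubiquitin ligase had a median log2 fold change of -0.39 over 5 measured genes. Of these, 2 read lower at an unadjusted limma p under 0.05, against 6.44% of all genes, and 0 passed after adjustment. All of these partners but Elob had a mean over the 6 arrays of 3 or more. Among the 2545 genes in that range, 678 were lower at that p and the median was -0.25. The count of lower partners was 1 when knockout replicate 3 was left out, and likewise for wild type replicates 2 and 3. The 2 genes were Nedd8 and Elob. Elob had an unadjusted limma p under 0.05 in only 4 of 15 alternative analyses, and 0.197 with cyclic loess. Nedd8, whose product activates cullins, read 4.59, 5.06 and 4.58 in knockout livers, against 5.48, 5.66 and 6.02 in wild type livers. The groups did not overlap, with a log2 fold change of -0.98 (unadjusted p = 0.000641, adjusted p = 0.194). It was -0.75 after renewed quantile normalization. Elob and Eloc, the elongin genes of the complex, had -0.39 and -0.36 (adjusted p of 0.546 and 0.581). Elob was -0.22 without knockout replicate 3. The other measured partners, named after their values were seen, were the scaffold gene Cul2 with -0.42 and the RING subunit gene Rbx1 with 0.34 (adjusted p of 0.640 and 0.581), so that 1 of 5 was higher.

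Coactivator and CITED genes had a median of 0.092 over 5 genes, with 1 higher at an unadjusted limma p under 0.05, against 2.59% of all genes, and 0 after adjustment. Cited2, whose product competes with HIF alpha for coactivators, had 0.34 (unadjusted p = 0.0279, adjusted p = 0.484), with no overlap between groups. Cited4 had 0.50 and the coactivator gene Ep300 -0.35 (adjusted p of 0.623 and 0.640), and Cited4 was 0.23 without knockout replicate 2. Among 10 genes that affect HIF stability or translation, 1 read lower at an unadjusted p under 0.05, against 6.44% of all genes, and the median was -0.078. This was the deacetylase gene Sirt1, with 1.71, 2.58 and 1.81 in knockout livers, against 2.42, 3.21 and 3.51 in wild type livers. The groups overlapped for Sirt1, and its log2 fold change was -1.01 (unadjusted p = 0.0115, adjusted p = 0.396). Aco1, the iron regulatory protein gene, had -0.25, and Fkbp8, a chaperone gene, -0.19 (adjusted p of 0.563 and 0.796); Fkbp8 was -0.039 without wild type replicate 3.

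Other oxygen-using dioxygenases had a median of 0.082 over 13 genes, with 1 higher at an unadjusted limma p under 0.05, against 2.59% of all genes. This was Ado, the thiol dioxygenase gene that acts as an oxygen sensor for N-terminal cysteines, with 2.29, 2.19 and 1.60 in knockout livers, against 1.30, 1.63 and 1.55 in wild type livers. Knockout replicate 3 lay between the wild type values, and the log2 fold change was 0.54 (unadjusted p = 0.0218, adjusted p = 0.453). The histone demethylase gene Kdm6a had -0.79 and the DNA demethylation gene Tet3 0.27 (adjusted p of 0.556 and 0.577). Other basic helix-loop-helix PAS genes showed no gene at an unadjusted p under 0.05 among 11 measured, with a median of 0.095 (limma, 0 after adjustment). Those with the smallest p were Sim1 (0.24), Sim2 (0.18) and Arnt2 (0.13), each inside the range of the kidney markers.

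**Figure D4:**
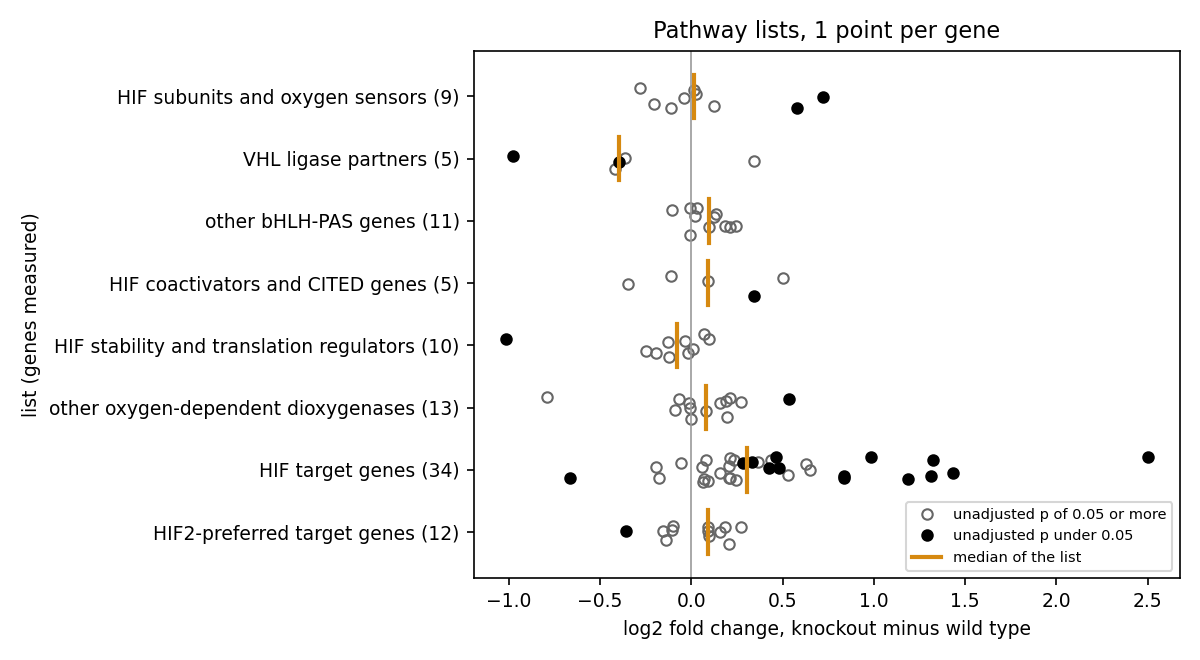
Log2 fold change, knockout minus wild type, of every measured gene in each pathway list, 1 point per gene, filled at an unadjusted limma p under 0.05, with the list median as a vertical bar. The filled points of the 9 genes are Egln1 and Egln3, and the HIF target list has 13 filled points above 0 and 1 below.

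Cell type markers were read beside these genes. None of them passed an adjusted p of 0.05 in the fit with all 6 arrays (limma). In whole liver fewer cells of a type and less RNA per cell cannot be told apart. All 7 measured of 8 erythroid markers had a negative log2 fold change, 4 of them at an unadjusted limma p under 0.05. At that p 6.44% of all genes were lower, and 678 of the 2545 genes with a mean of 3 or more, whose median was -0.25. The summed linear level of the erythroid markers was 390 to 539 in knockout and 577 to 801 in wild type livers. Alas2, the erythroid heme synthesis enzyme gene, had -0.63, and Rhag, a red cell membrane protein gene, -0.59. Without wild type replicate 1 Rhag was -0.76 and passed (limma adjusted p = 0.045), in a fit where 95 of all genes passed. Of 8 hepatocyte markers, 4 read lower at that p (2 without knockout replicate 3, 1 without wild type replicate 2 or 3), with sums of 2185 to 3397 in knockout and 3046 to 3687 in wild type livers. Among these plasma protein genes, Apoh had -1.24, and Ahsg had -1.15 but -0.55 without knockout replicate 3. The list also covers hepatoblasts, and 2 of the 8 had a positive log2 fold change. These were Afp with 0.045 and Trf with 0.046, named after their values were seen. Of 8 endothelial markers 0 passed that p (limma, 0 after adjustment), with sums of 27.8 to 32.0 in knockout and 28.1 to 28.9 in wild type livers. Of 9 measured macrophage markers, 1 read lower (5 without wild type replicate 1), with sums of 28.8 to 42.0 in knockout and 38.5 to 53.5 in wild type livers; the complement gene C1qc had -0.31 and the adhesion gene Vcam1 -0.46, which were -0.20 and -0.23 without knockout replicate 3. Of 6 mesenchymal markers, 1 read higher, the collagen gene Col1a1 with 0.38, beside the desmin gene Des with 0.16, and the sums were 29.8 to 34.4 in knockout and 26.0 to 36.9 in wild type livers. The megakaryocyte markers Gp9 and Pf4 had -0.29 and -0.10. Gp9 was -0.65 without knockout replicate 2 and -0.092 without knockout replicate 3, and Pf4 turned to 0.10 after renewed quantile normalization and 0.057 with cyclic loess. The 3 measured megakaryocyte markers summed to 57.8 to 89.0 in knockout and 72.7 to 82.1 in wild type livers. Of 5 measured kidney markers, 1 read lower at an unadjusted limma p under 0.05. This was Nphs1 with -0.23, without overlap between groups, and it was -0.098 with its probe sets averaged. Aqp2 had -0.20, and the kidney marker sums were 12.1 to 13.3 in knockout and 12.3 to 14.0 in wild type livers. No marker was at 0. The part of these marker values in those of Egln1 and Egln3 was not tested.

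The genes closest to Egln1 in pattern were Rpl37a, Tmem158, Taar7f, Dand5 and Gtf2i. Likeness was the mean absolute difference of values centred on each gene's mean over the 6 arrays, which was 0.102 to 0.128 log2 units for these genes. Among the other 8 members it was 0.256 to 0.432, with Hif1an closest. On this measure a gene that varies little can lie close without sharing the pattern. Taar7f and Dand5 lay inside the range of the kidney markers in all 6 arrays. Of the named genes closest to Egln1, only Rpl37a had no overlap between groups. In knockout replicate 2 Hif1an was the lowest of the 6 arrays (1.15), while Egln1 was the highest (2.82). Egln3 differed from Egln1 by 0.310 on this measure, as its values were more spread within the knockout group.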

How the data were processed

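Total RNA, extracted with Trizol, was biotin-labelled from 6 ug per liver, per the labels' protocols. The authors' deposited values, 1 for each of 28853 probe sets on each array, were made with RMA (version not given), per the submitters' processing notes. The log base is not given, and log2 was inferred from the deposited values: raised from base 2 the array maxima are 3457 to 6451, and from base e 127417 to 313456, above the scanner limit of 65535. RMA normalizes by quantiles, but the upper parts of the 6 distributions differ (90th percentiles of 3.67 to 4.13), so whether the authors took a further step is not known, and fold sizes are those of the deposited values.

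A platform annotation gave 1 symbol to 21789 probe sets, several to 1621 and none to 5443. Each gene was represented by its brightest probe set. All 19938 genes were fitted by genotype alone using lmFit and eBayes of limma 3.58.1 (R 4.3.3, two-sided), and p-values were adjusted by Benjamini-Hochberg over these genes. No batch is given in the sources used here. The fit was tested on simulated data with independent noise and larger differences than those of Egln1 and Egln3. That check therefore does not give the sensitivity for the 9 genes. Arrays have no read depth, and 3 per group limit the precision. Correlations between arrays were 0.980 to 0.981 within knockout, 0.978 to 0.990 within wild type and 0.974 to 0.983 between groups.

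The members and lists were chosen with earlier results of these data known. Named were all 9 members, Tmod3, up to 3 genes per list and 2 per marker list by smallest p, and the 5 genes most like the member with the smallest p. Summed levels are sums of 2 raised to the log2 value. Alternatives were a replicate block, each array left out in turn, renewed quantile normalization, median centring, averaging the probe sets of each gene, a filter on dim genes, trend with robust fitting, array weights, all probe sets and, added after seeing the data, cyclic loess. List symbols without a probe set of their own were not analysed here.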

Additional observations from a re-analysis of the deposited data

How the results depend on the processing

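No member passed an adjusted p of 0.05 under any of the 15 alternatives. An unadjusted p under 0.05 was found for Egln1 in 15 of the 15, Egln3 in 10, Hif3a in 3, Hif1a in 1 and Epas1 in 1. The median of the 9 members stayed within the spread between knockout arrays. Over all genes, 3 passed as reported, 1801 at an unadjusted p under 0.05, 6 after renewed quantile normalization, 11 with array weights, 8 with cyclic loess, and 0 to 95 with 1 array left out (0 without wild type replicate 2, 1 without knockout replicate 1, 95 without wild type replicate 1). Of 133 member values under alternatives, 119 kept direction and side of the threshold and 14 changed sign, all in genes that did not pass. The 119 overstate stability, since some alternatives leave the log2 fold change of a gene with 1 probe set as it was. These are the replicate block, probe set averaging, the filter on dim genes, trend with robust fitting and all probe sets. Hif1a was 0.11 with renewed quantile normalization, 0.12 with cyclic loess and -0.40 to 0.063 with 1 array left out. Arnt was -0.014 after median centring and -0.016 to 0.072 with 1 array left out. Vhl was -0.013 with renewed quantile normalization, -0.025 after median centring, -0.0085 with cyclic loess and -0.029 to 0.077 with 1 array left out. With 1 array left out, Egln2 was -0.15 to 0.071, Hif1an -0.0015 to 0.22 and Pf4 -0.27 to 0.042; Pf4 was 0.10 with renewed quantile normalization and 0.057 with cyclic loess. The cause was not tested. The counts of genes at an unadjusted p under 0.05 in the coactivator, stability, dioxygenase, other PAS and HIF2 target lists moved by up to 2 genes with 1 array left out. Counts also moved under other alternatives. The lower HIF2 target count was 0 with renewed quantile normalization, cyclic loess and trend with robust fitting. The higher coactivator count was 0 with trend and robust fitting and 2 with the replicate block. The filter on dim genes kept 7 of the 9 members, without Egln2 and Hif1an.

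No pairing by replicate number was evident: deviations from the group means of same-numbered arrays correlated at 0.107, 0.0566 and -0.105. With 3 arrays per group this check cannot exclude a pairing. With the replicate block 0 of all genes passed, in place of 3, and Tmod3 had an adjusted p of 0.0897. Levels near those of the kidney markers limit what can be said of Epas1, Vhl, Egln2, Hif1an, Hif3a, Arnt and Egln3.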
